A study of Mus musculus with 4 samples.

Results

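Layer 6b is the deepest sheet of the mouse cortex, lying on the white matter, and the capture spots described here were chosen by their measured counts of Ccn2 and Cplx3, a pair of genes that mark it. Of 12602 spots deposited, 12601 held at least 500 counts and were kept. The counts of each kept spot were scaled to 10000 and log-transformed, both genes were turned into z-scores over all kept spots, and the 711 spots whose mean z was at least 1.5 were taken as layer 6b spots. The tissue came from 4 mice without treatment, 2 of them wild type and 2 Celsr3 heterozygous. Celsr3 encodes an atypical cadherin needed for the guidance of many axon tracts. The nature of the Celsr3 allele, the strain, the age and the sex of the mice are not given in the sources used here. Coronal sections at the level of the striatum, cut from fixed and paraffin-embedded brains, were read with Visium CytAssist, in which probe pairs for each gene are captured on barcoded spots. A spot is a small region that can hold several cells of different types, so fewer cells of a type and less RNA per cell cannot be told apart.

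The spot names carry 4 suffixes, called sets 1 to 4 here, and nothing in them ties a set to a mouse. Every value is therefore given per set, no test between groups was run, and wild type and Celsr3 heterozygous tissue were not compared. Bracketed ranges are exact 95% intervals, which cover counting error only.

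Neurons of layer 6b are the adult remnant of the subplate, a transient zone that holds some of the first cortical neurons to be born and guides early thalamic axons. Those that survive are mostly glutamatergic, project within the cortex and to the thalamus, and are known for responding to neuromodulators such as orexin. Ccn2 encodes a secreted matrix protein of the CCN family that vessels and meninges also make. Cplx3 encodes a complexin, a SNARE-binding regulator of transmitter release, and some cortical interneurons make it too.

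Layer 6b spots made up 5.04% of the spots of set 1 (154 spots, 4.29% to 5.88%), 5.52% of set 2 (155, 4.70% to 6.43%), 5.69% of set 3 (196, 4.94% to 6.52%) and 6.25% of set 4 (206, 5.45% to 7.14%). These Clopper-Pearson intervals overlap. Summed over its layer 6b spots, sets 1 to 4 held 7774882, 4996331, 8268679 and 4855610 counts. The median layer 6b spot held 47214, 31958, 39918 and 23221 counts, in each set fewer than the median other spot (52632, 38473, 45114 and 26644). The score of the chosen spots had a median of 3.09 and a maximum of 6.49. Near the threshold, 29 spots scored 1.5 to 1.6 and 26 scored 1.4 to 1.5. The 711 spots carried 669 different barcode sequences, of which 629 occurred among layer 6b spots of 1 set, 38 of 2 sets, 2 of 3 sets and 0 of all 4. In the whole data 1613 of 4743 barcode sequences occurred in every set.

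The genes of the rule are given as a description only. Ccn2 stood at 539, 785, 417 and 624 counts per 1000000 (CPM) in the layer 6b spots of sets 1 to 4, and at 9.19, 16.4, 9.33 and 15.1 CPM in all other spots. Cplx3 stood at 392, 356, 311 and 233 CPM, against 8.92, 6.63, 7.39 and 10.3 CPM. Layer 6b spots were compared with all other spots and with 3 nearby areas scored in the same way, each without layer 6b spots. These were 367 layer 6 spots (by Syt6 and Rprm), 880 white matter spots (by myelin genes) and 436 spots high in Gnb4 and Synpr, genes of the claustrum. The last group also held 574 to 1292 CPM of Penk and 1085 to 3426 CPM of Ppp1r1b, genes of striatal projection neurons, and is therefore called the Gnb4 and Synpr spots. Of the 711 layer 6b spots, 127 also passed the layer 6 rule, 118 the white matter rule and 75 the Gnb4 and Synpr rule, while 401 passed none of the 3.

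Layer 6b genes that the rule did not use are given next, as a description of the spots. Nxph4, which encodes a neurexophilin, a secreted ligand of neurexins, is an established marker of layer 6b neurons. Nxph4 stood at 90.9, 55.2, 72.9 and 42.4 CPM in layer 6b spots of sets 1 to 4. It stood at 6.95, 2.93, 3.85 and 1.17 CPM in layer 6 and at 7.70, 6.34, 4.82 and 5.69 CPM in white matter. The ranges of these areas did not overlap with layer 6b, and the share of all genes with such a gap was not counted. The layer 6b level was 13.1 (9.27 to 19.0), 18.8 (11.2 to 34.1), 18.9 (12.6 to 29.8) and 36.4 (12.3 to 178) times that of layer 6. The last interval is wide because layer 6 of set 4 held 3 counts of the gene.

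Nxph3, another neurexophilin gene, extended into layer 6. It stood at 407, 347, 459 and 344 CPM in layer 6b spots, at 203, 162, 199.8 and 177 CPM in layer 6 and at 28.9, 27.4, 34.8 and 26.1 CPM in all other spots. The ratio over other spots was 12.7 to 14.1 and that over layer 6 was 1.94 to 2.30. Both neurexophilins were thus highest in layer 6b, Nxph4 with little signal in layer 6 and Nxph3 with a clear one.

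**Figure D1:**
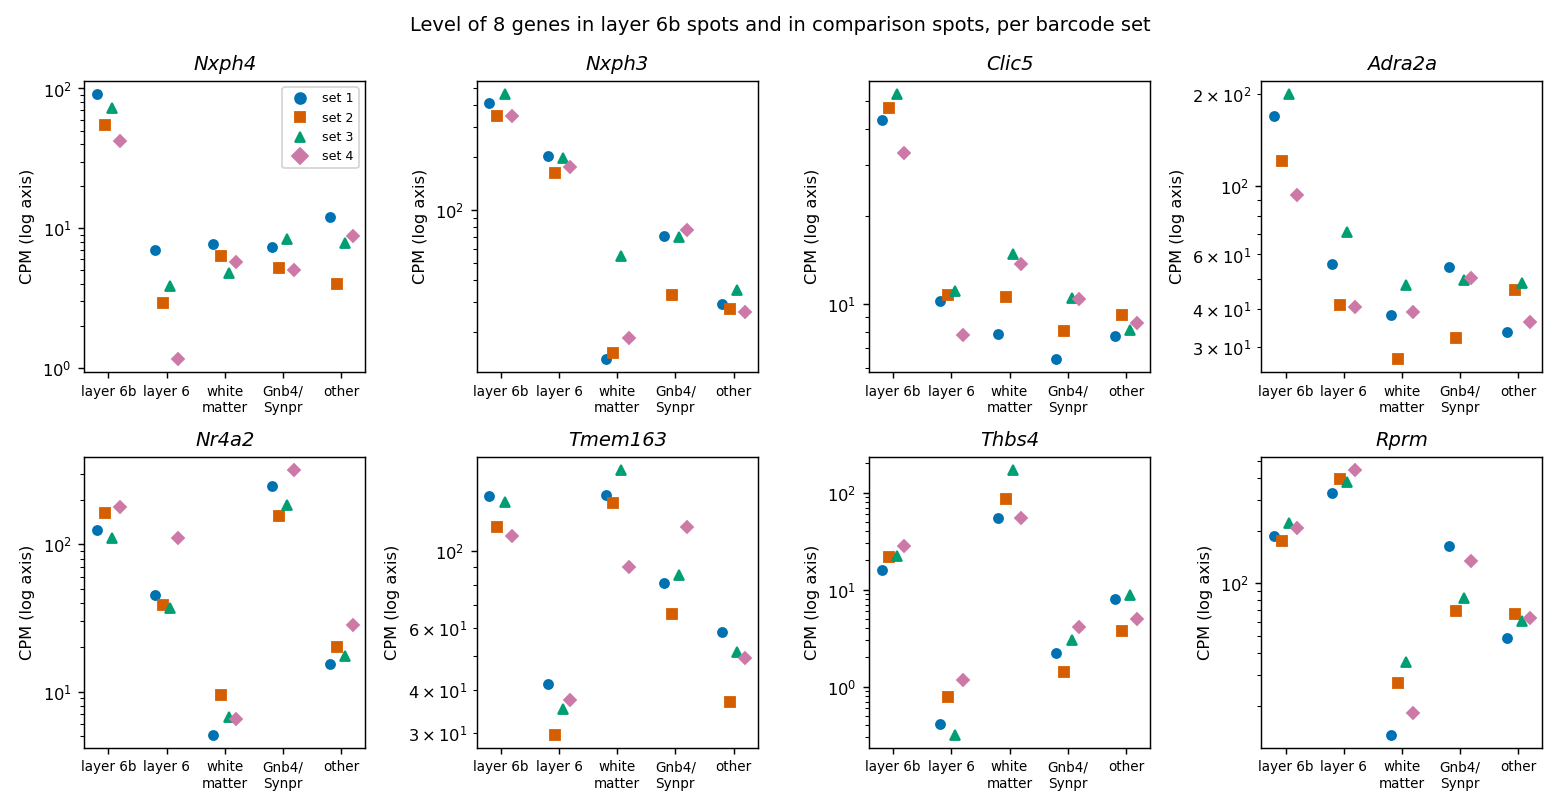
Level of 8 genes (CPM, log axis) in layer 6b spots and in the 4 comparison groups, 1 point per barcode set and no error bars. Nxph4, Nxph3, Clic5 and Adra2a are highest in layer 6b in every set, Nr4a2 is shared with the Gnb4 and Synpr spots, Tmem163 and Thbs4 with white matter, and Rprm, a gene of the layer 6 rule, is highest in layer 6.

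A gene was called higher or lower when it differed by at least 2-fold, on CPM plus 1, in the same direction in all 4 sets. Genes that averaged under 10 CPM over both groups were not compared. A gene under 10 CPM elsewhere could pass this filter through its layer 6b level and then had to differ. Calls of such genes, and counts over the layer 6b list, are therefore a description and support nothing. Over other spots, 10088 genes were compared, of which 67 (0.664%) were higher in layer 6b and 126 (1.25%) were lower. Of 20 layer 6b neuron genes outside the rule, 11 could be compared, and 6 were higher and 0 lower. The 6 were Nxph3, Nxph4, Nr4a2, Clic5, Adra2a and Tmem163, of which Nxph4 and Clic5 passed the filter through layer 6b. Over all genes compared the median log2 ratio was -0.05. In single spots, the summed level of the list lay above the median of other spots in 98.7%, 89.7%, 99.5% and 88.8% of layer 6b spots of sets 1 to 4. A high share was not particular to this list. It was 96.8%, 80.6%, 94.4% and 85.4% for layer 6 corticothalamic genes and 86.4%, 70.3%, 85.7% and 72.3% for oligodendrocyte genes. For endothelial and mural genes it was 41.6% to 48.4%, and for meningeal and fibroblast genes 31.2% to 54.8%.

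Nr4a2, an orphan nuclear receptor of deep cortical and claustral neurons, stood at 126, 162, 109.6 and 178 CPM in layer 6b spots and at 15.5, 19.9, 17.4 and 28.3 CPM in other spots. In the Gnb4 and Synpr spots it stood at 249.5, 156, 184 and 319 CPM, above layer 6b in sets 1, 3 and 4. In layer 6 it stood at 45.6, 38.5, 37.1 and 111 CPM, so that set 4 alone kept it from being called over layer 6. Clic5, a gene of the chloride intracellular channel family, stood at 43.0, 47.2, 52.7 and 33.0 CPM in layer 6b spots, 7.77 to 11.1 CPM in layer 6 and 7.83 to 14.8 CPM in white matter. Its ratio over layer 6 was nearly the same in every set, 4.20 to 4.76. Tmem163, which encodes a zinc transporter, stood at 144, 118, 139 and 111 CPM in layer 6b spots and 41.5, 29.7, 35.2 and 37.3 CPM in layer 6, but white matter held 146, 138, 171 and 89.9 CPM.

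Several genes of the list were too weak to compare. Moxd1, a monooxygenase-like gene, stood at 12.99, 9.61, 11.4 and 8.86 CPM in layer 6b spots and 3.96, 1.58, 2.83 and 2.48 CPM in other spots. Ly6g6e, a gene of the Ly6 family, stood at 22.6, 9.01, 15.8 and 6.18 CPM against 1.39, 0.898, 1.19 and 1.26 CPM, and Pcsk5, a proprotein convertase gene, at 15.05, 7.81, 13.4 and 7.62 CPM against 4.99, 2.80, 3.87 and 2.91 CPM. Each of these genes was above the other spots in every set, but they are only some of the weak genes of the list. Against layer 6 other weak genes went both ways. Svil stood at 3.11 to 3.93 and Col8a1 at 1.54 to 5.89 times the layer 6 level. Rxfp1 stood at 0.386 to 1.35 times it and Sla2 at 0.398 to 0.723 times, and the orexin receptors, given below, were also under it. Lpar1, a lysophosphatidic acid receptor gene, and Kcnab1, a potassium channel subunit gene, were not called over other spots (ratios of 1.67 to 2.46 and 0.725 to 1.03). Of 15 genes described in the developing subplate, 14 were in the table, 11 could be compared and 0 were called in either direction, with a median log2 ratio of 0.64. Cdh18, a cadherin gene, and Serpini1, which encodes neuroserpin, came nearest, at 1.89 to 2.65 and 1.83 to 2.39 times the other spots.

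Receptors for neuromodulators were a mixed group. Of 30 such genes 23 could be compared with other spots, and 3 were higher and 3 lower, with a median log2 ratio of 0.12. Adra2a, the alpha-2A adrenergic receptor, stood at 169, 121, 199 and 93.5 CPM in layer 6b spots, 56.0, 41.0, 71.0 and 40.4 CPM in layer 6 and 33.6, 45.9, 48.5 and 36.2 CPM in other spots. It was the single receptor of the list called over layer 6, where 20 were compared. Chrna5, a nicotinic receptor subunit, stood at 26.2, 24.2, 24.3 and 19.2 CPM, against 3.52, 3.94, 3.33 and 2.62 CPM in other spots and 37.0, 30.3, 29.9 and 22.5 CPM in layer 6. Against other spots Chrna5 passed the filter through its layer 6b level, so its call there supports nothing. Ntsr1, a neurotensin receptor used to mark corticothalamic neurons, stood at 32.5, 40.2, 31.1 and 38.7 CPM, with a ratio over other spots of 2.94 to 3.85 and over layer 6 of 1.23 to 1.396. Chrna5 and Ntsr1 were therefore genes of both deep layers by level. Adra2a was called over layer 6 and over other spots, but not over the Gnb4 and Synpr spots.

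The receptors below the other spots were the serotonin receptors Htr2c (ratios of 0.154 to 0.411) and Htr7 (0.216 to 0.445) and the adrenergic receptor Adra1d (0.180 to 0.435). The orexin receptors gave little signal and were not compared. Hcrtr1 stood at 2.83, 2.80, 2.66 and 3.09 CPM in layer 6b spots and 6.54, 4.30, 4.82 and 5.05 CPM in layer 6. Hcrtr2 stood at 6.56, 5.004, 5.81 and 3.91 CPM in layer 6b spots and 7.97, 5.86, 5.94 and 6.99 CPM in layer 6. Both lay below layer 6 in all 4 sets, but the interval of the ratio included 1 in every set for Hcrtr2 and in sets 2 and 4 for Hcrtr1. Drd1, a dopamine receptor reported in layer 6b neurons, stood at 10.2, 10.6, 12.7 and 11.9 CPM in layer 6b spots and 14.8, 16.7, 16.6 and 9.36 CPM in other spots, which include the striatum. Htr2a, a serotonin receptor, stood at 41.8, 24.6, 37.4 and 17.1 CPM, 1.54 to 1.86 times its layer 6 level.

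The transmitter genes were those of glutamatergic cortex. Slc17a7, the vesicular glutamate transporter of cortical neurons, stood at 3303, 2842, 2716 and 2483 CPM in layer 6b spots, 1057, 1278, 1226 and 1077 CPM in other spots and 3529, 2828, 3140.4 and 3154 CPM in layer 6. Slc17a6, the transporter typical of thalamic neurons, stood at 4.12, 5.004, 4.23 and 13.6 CPM against 93.2, 16.3, 40.1 and 95.2 CPM in other spots, and was called lower. Of 5 transmitter genes compared with other spots 1 was higher and 2 lower. Slc32a1, the vesicular GABA transporter, was also called lower, at 25.5, 28.8, 26.1 and 32.1 CPM. Of 12 genes of the release machinery, 0 were higher and 2 lower than in other spots, the lower ones being Vamp1 (ratios of 0.335 to 0.378), a synaptobrevin, and Syt2 (0.189 to 0.372), a fast calcium sensor. Cplx1 and Cplx2, the complexins of most neurons, stood at 0.716 to 0.773 and 0.656 to 0.744 times their layer 6 level, below it in every set, while Cplx3 belongs to the rule.

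Genes of layer 6 corticothalamic neurons were also present. Of 8 compared with other spots, 4 were higher and 0 lower, with a median log2 ratio of 1.18. The 4 were Hs3st4 (188, 301, 224 and 387 CPM), a heparan sulfate sulfotransferase gene, Tbr1 (102, 128, 101 and 162 CPM), a transcription factor of deep-layer neurons, Ntsr1 and Rprm (185, 174, 220.3 and 206 CPM). Against layer 6, the 6 genes of the list that the layer 6 rule did not use had 0 called in either direction and a median of -0.19. Upper-layer genes were low against other spots, which include the striatum: of 7 compared 0 were higher and 4 lower, with a median of -1.56. The 4 were Calb1 (ratios of 0.169 to 0.284), which encodes calbindin, Rasgrf2 (0.289 to 0.441), Wfs1 (0.301 to 0.465) and Rspo1 (0.0996 to 0.197), a Wnt agonist of layer 4. Against layer 6, 6 upper-layer genes were compared and 0 were called in either direction, with a median of 0.27.

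Among the 20 genes with the largest smallest ratio over other spots, several were as high in layer 6. Vxn (868 to 1187 CPM), a neuronal differentiation gene, Krt80 (16.5 to 29.8 CPM), a keratin gene, and Podn (19.6 to 29.5 CPM), a small proteoglycan gene, stood at 0.776 to 1.01, 0.597 to 0.876 and 0.672 to 1.29 times their layer 6 level. Prss12, which encodes the synaptic protease neurotrypsin, was different. It stood at 28.4, 40.8, 27.1 and 38.5 CPM in layer 6b spots and 9.40, 21.9, 12.5 and 21.8 CPM in layer 6, a ratio of 1.77 to 3.02. Col23a1, a transmembrane collagen gene, stood at 29.8, 54.6, 36.5 and 58.7 CPM, 1.97 to 4.05 times layer 6, and Sema5b, a semaphorin gene, at 45.3, 64.4, 33.7 and 71.9 CPM, 1.62 to 1.95 times layer 6. Ccn3, a relative of Ccn2, stood at 136, 197, 134 and 142 CPM against 50.5, 64.6, 54.0 and 52.0 CPM in other spots, and was the 1 gene called among the 2 of its family that could be compared.

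Over layer 6, 9855 genes were compared, of which 61 (0.619%) were higher in layer 6b and 6 (0.0609%) were lower. Of the 10 layer 6b neuron genes compared, 6 were higher and 0 lower. They were Nxph4, Clic5 and Trh, which passed the filter through layer 6b, and Adra2a, Tmem163 and Inpp4b, which stood above 10 CPM on average in layer 6 too. C1qtnf1, Thbs4, C4b and Ptger3 also passed through layer 6b. Over all genes the median log2 ratio was -0.01. Inpp4b, a phosphoinositide phosphatase gene, stood at 47.1, 32.8, 47.4 and 29.9 CPM against 10.2, 11.7, 10.6 and 10.9 CPM in layer 6. Trh, which encodes thyrotropin-releasing hormone, stood at 16.3, 18.0, 21.0 and 33.6 CPM against 1.84, 3.91, 3.53 and 2.33 CPM in layer 6, but other spots held 36.6, 14.9, 23.8 and 66.5 CPM. Ptger3, a prostaglandin E receptor gene outside the lists, stood at 25.5, 29.4, 25.5 and 19.98 CPM against 8.59, 8.01, 9.96 and 8.16 CPM.

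Most other genes higher than in layer 6 were higher still in white matter. Without the rule genes 59 remained, and for 44 of them the white matter level lay above layer 6b in all 4 sets. For 9 it lay below in all 4, and for 6 it was mixed. The same shares over all genes compared were not counted, so these numbers are a description. Thbs4, a thrombospondin of astrocytes, stood at 15.9, 21.8, 22.4 and 28.0 CPM in layer 6b spots, 0.409, 0.782, 0.321 and 1.17 CPM in layer 6 and 55.2, 85.1, 171 and 54.9 CPM in white matter. Gfap, the astrocyte filament gene, stood at 254, 293, 223 and 222 CPM, 46.4, 35.2, 34.4 and 50.5 CPM and 895, 952, 1076 and 677 CPM in the same order. C4b, a complement gene, stood at 15.8, 25.4, 26.7 and 12.2 CPM in layer 6b spots against 1.64, 1.17, 2.89 and 1.55 CPM in layer 6. Layer 6b lay between layer 6 and white matter for each of these genes in every set. Of 9 oligodendrocyte genes, 3 were higher than in layer 6 (Mobp, Mog and Ermn) and 0 lower, with a median of 1.10. Mbp, which encodes myelin basic protein, stood at 10457, 10637, 7699 and 11461 CPM in layer 6b spots, 5384, 5158, 3819 and 4952 CPM in layer 6 and 33667, 47932, 26656 and 39133 CPM in white matter. The part of myelin-bearing cells in the ratios of other genes over layer 6 was not tested.

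The 6 genes lower than in layer 6 were Plk5, Tmem196, Abi3bp, Slc30a3, Grp and Syt6, the last a gene of the layer 6 rule. Without set 2 the count was 12 and without set 3 it was 9. Slc30a3, the vesicular zinc transporter of many corticocortical neurons, stood at 25.7, 60.2, 36.8 and 54.4 CPM against 73.0, 127, 99.1 and 116 CPM in layer 6. Grp, which encodes gastrin-releasing peptide, stood at 8.23, 7.21, 9.68 and 16.5 CPM against 27.8, 17.4, 21.4 and 38.1 CPM. Plk5, a polo-like kinase gene, stood at 6.82, 19.4, 10.0 and 17.3 CPM against 22.3, 58.8, 26.8 and 51.3 CPM. Immediate-early genes, which are induced by activity, were below layer 6 but not called. Of 6 compared, 0 were called in either direction, and the median was -0.65. Arc, the best known of them at synapses, stood at 157, 279.8, 107 and 649 CPM against 292, 625, 192 and 1420.0 CPM, lower in all 4 sets.

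**Figure D2:**
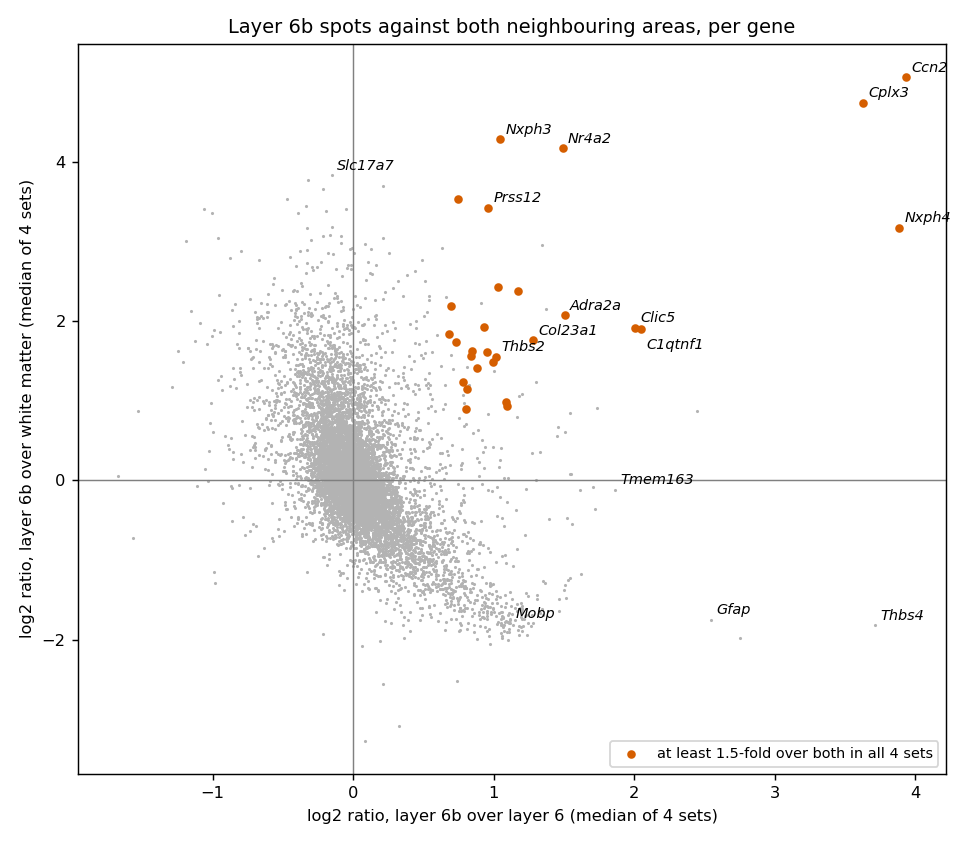
Median over the 4 sets of the log2 ratio of layer 6b over layer 6 (horizontal) and over white matter (vertical), 1 point per gene for 9724 genes. The 28 genes at least 1.5-fold above both neighbours in every set are in orange, at the upper right.

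Layer 6b lies between layer 6 and white matter, so genes above both were counted, a comparison added after the data were seen. Of 9724 genes, 6 (0.0617%) were at least 2-fold above both in all 4 sets, namely Ccn2 and Cplx3 of the rule, Nxph4, Clic5, Adra2a and C1qtnf1. Nxph4, Clic5 and C1qtnf1 passed the filter against layer 6 through their layer 6b level and then had to differ. With the rule genes also among them, these 6 are a description and support nothing. Without set 4 the count was 13. C1qtnf1, which encodes a secreted protein of the C1q and TNF related family, stood at 7.97, 26.0, 24.4 and 16.1 CPM in layer 6b spots, 1.23, 3.13, 4.98 and 6.99 CPM in layer 6 and 2.84, 4.23, 2.57 and 5.41 CPM in white matter. Its lowest layer 6b value, in set 1, was close to the highest in layer 6. All 6 were also called over other spots, and all but Adra2a over the Gnb4 and Synpr spots. At 1.5-fold the count was 28 (0.288%). The added genes included Nxph3, Nr4a2, Prss12, Col23a1, Ccn3, Htr2a and Sema5b, described above, and Wnt4, Cabp7, Cdh13, Cdh24 and Thbs2. Wnt4, a Wnt ligand, stood at 30.9, 38.6, 30.2 and 33.0 CPM (1.76 to 2.41 times layer 6), and Thbs2, a thrombospondin that promotes synapse formation, at 26.6, 19.8, 28.7 and 13.2 CPM (1.79 to 2.60 times layer 6). In the opposite direction 2 genes (0.0206%) were 1.5-fold below both, Kctd8 (7.01 to 11.7 CPM), a GABA-B receptor subunit gene, and Cfap100 (4.63 to 10.3 CPM).

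Sequences upstream of the start are shown for the 3 of these 6 genes that had an entry in the RefSeq promoter table (GRCm38.p6): Cplx3, a gene of the rule, Clic5 and Adra2a. Ccn2, Nxph4 and C1qtnf1 had none. Each is the 250 bases before the start, 5′ to 3′ on the gene's strand.
Cplx3, chr9:57606282-57606531, minus strand: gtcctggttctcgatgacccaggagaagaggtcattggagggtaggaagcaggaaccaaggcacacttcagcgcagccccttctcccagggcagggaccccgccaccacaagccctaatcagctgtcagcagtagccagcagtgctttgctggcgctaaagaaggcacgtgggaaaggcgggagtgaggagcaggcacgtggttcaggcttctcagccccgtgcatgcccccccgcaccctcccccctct
Clic5, chr17:44188322-44188571, plus strand: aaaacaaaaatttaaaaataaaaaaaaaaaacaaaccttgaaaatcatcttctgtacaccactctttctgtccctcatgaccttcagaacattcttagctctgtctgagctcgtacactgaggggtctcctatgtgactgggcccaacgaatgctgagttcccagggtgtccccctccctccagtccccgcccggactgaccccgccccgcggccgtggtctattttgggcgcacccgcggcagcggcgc
Adra2a, chr19:54045009-54045258, plus strand: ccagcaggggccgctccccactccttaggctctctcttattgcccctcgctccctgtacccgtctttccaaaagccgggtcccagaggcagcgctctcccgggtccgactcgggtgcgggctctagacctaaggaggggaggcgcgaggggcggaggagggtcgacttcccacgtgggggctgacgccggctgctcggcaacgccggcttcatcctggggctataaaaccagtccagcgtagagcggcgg
They were searched on both strands for the TEAD motif GGAATG, the NR4A motif AAAGGTCA and the T-box motif AGGTGTGA, the last 2 of which share the letters AGGT. None of the 3 windows held any of the motifs, so no letter is in capitals. Of 32851 promoters of the table, 12.6% held the first, 1.34% the second and 1.12% the third.

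Over the Gnb4 and Synpr spots, 9953 genes were compared, of which 88 (0.884%) were higher in layer 6b and 37 (0.372%) were lower. All 9 oligodendrocyte genes were higher, with a median of 1.41 against -0.03 over all genes. Of 12 layer 6b neuron genes 4 were higher and 0 lower. These were Nxph3 and Lpar1, and Nxph4 and Clic5, which passed the filter through layer 6b. Nr4a2, with the levels given above, was not called in this comparison. Over white matter, 10226 genes were compared, of which 636 (6.22%) were higher in layer 6b and 464 (4.54%) were lower. Of 10 layer 6b neuron genes 6 were higher, Nxph4 and Nr4a2 among them passing the filter through layer 6b, and 1 was lower. The last was Lpar1, at 109, 95.1, 113 and 96.4 CPM in layer 6b spots and 288, 349.8, 328 and 237 CPM in white matter. Lpar1 is also expressed by oligodendrocytes. The 7 oligodendrocyte genes that the white matter rule did not use were all lower, with a median of -1.88 against 0.01 over all genes.

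**Figure D3:**
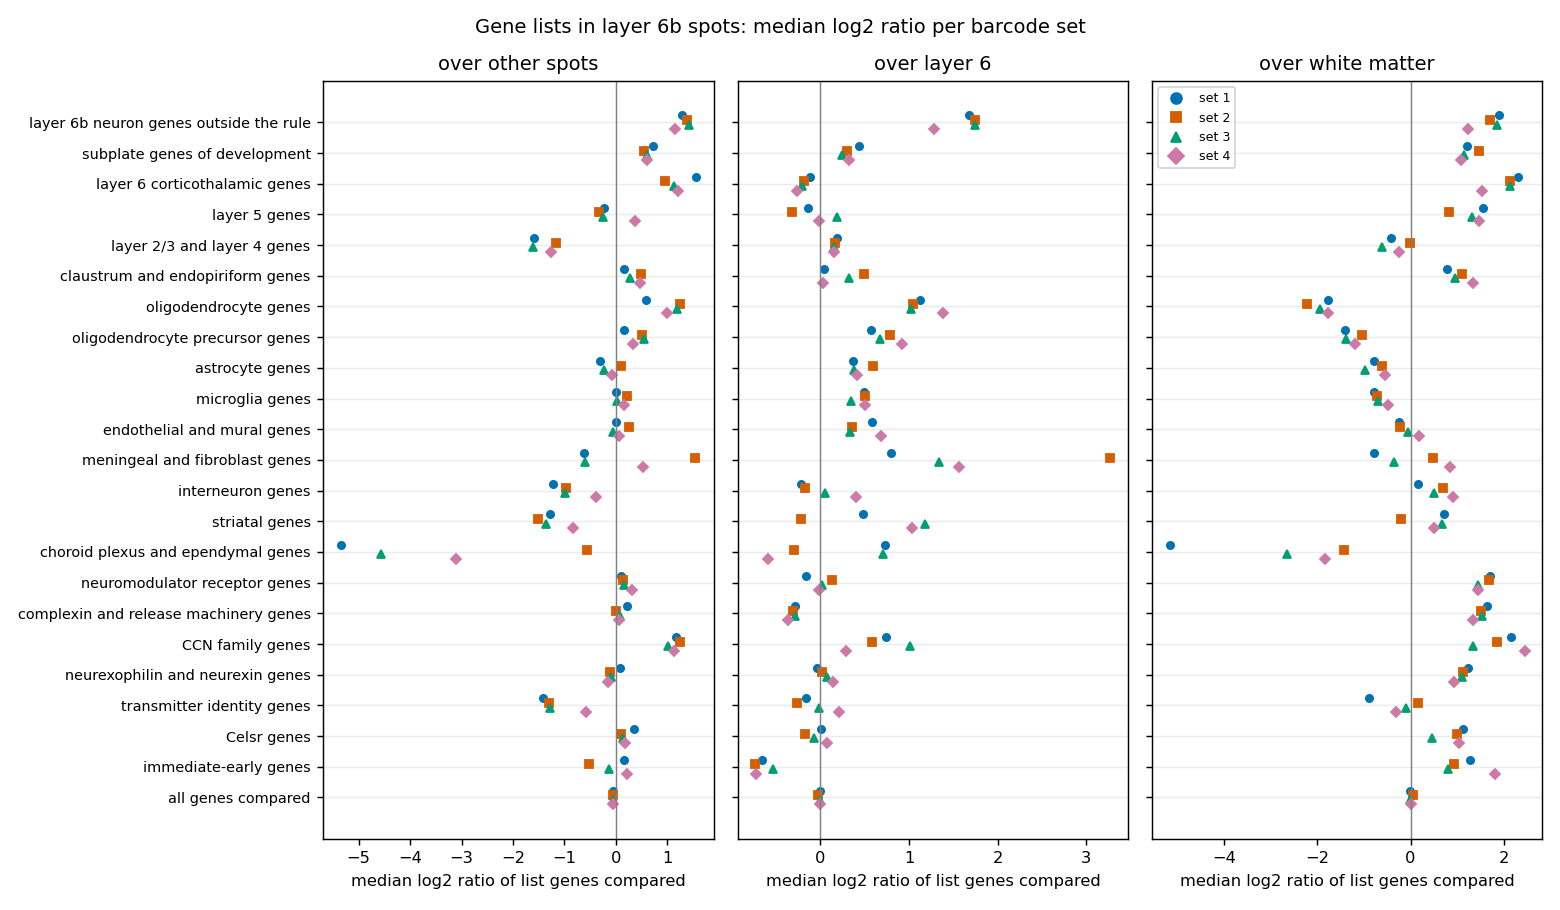
Median log2 ratio of each gene list in layer 6b over other spots, over layer 6 and over white matter, 1 point per barcode set. The layer 6b neuron genes, some of which passed the filter only through layer 6b, lie above 0 in every set and panel, and the oligodendrocyte genes lie above 0 over other spots and layer 6 and below 0 over white matter.

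Markers of other cells that a spot could hold were set against other spots and against layer 6. Against other spots, 0 of 9 oligodendrocyte, 0 of 5 oligodendrocyte precursor, 0 of 6 astrocyte, 0 of 8 microglia and 0 of 7 endothelial and mural genes were called in either direction. Their medians were 1.10, 0.44, -0.15, 0.08 and 0.03. Of 10 interneuron genes, 0 were higher and 2 lower (Slc32a1 and Lamp5), with a median of -0.97. Of 6 striatal genes 1 was lower (Penk), with a median of -1.31, and of 2 choroid plexus and ependymal genes compared 1 was lower (Ttr). Of 3 layer 5 genes and 6 claustrum and endopiriform genes compared, 0 were called, with medians of -0.23 and 0.33. Of the 4 meningeal and fibroblast genes compared 0 were called, but the sets differed, with medians of -0.62, 1.53, -0.61 and 0.53. The summed level of all 7 genes of the list was 63.4, 271, 68.0 and 126 CPM in layer 6b spots and 148, 85.4, 127 and 91.8 CPM in other spots, above the other spots in sets 2 and 4 and below them in sets 1 and 3. Few spots carried the sums of sets 2 and 4. Their median layer 6b spot held 0.388 and 0.453 counts of these genes per 10000, against 0.307 and 0.407 in other spots, while at the 95th percentile it was 38.2 and 28.3.

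Against layer 6 the same lists leaned higher. The medians were 0.76 for oligodendrocyte precursor, 0.43 for astrocyte, 0.48 for microglia and 0.47 for endothelial and mural genes, with 1 gene called, Gfap. Of 3 meningeal and fibroblast genes compared with layer 6, 1 was higher (Col1a2) and 0 lower. The sum of that list was 44.8, 24.6, 50.9 and 37.3 CPM in layer 6 of sets 1 to 4, the furthest below layer 6b in set 2. The part of these cells in the genes called over layer 6, or over both neighbours, was not tested.

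The spots differed by which marker brought them in. Both genes were at a z of at least 1 in 614 spots (145, 133, 185 and 151 in sets 1 to 4), Ccn2 alone in 69 (4, 20, 6 and 39) and Cplx3 alone in 28 (5, 2, 5 and 16). In spots with both, Nxph4 stood at 93.4, 57.1, 74.0 and 47.9 CPM. In spots with Ccn2 alone it stood at 13.6, 41.9, 59.3 and 33.9 CPM, where sets 1 and 3 rest on few spots. Ccn2-only spots of set 2 held 200.2 CPM of Acta2, the smooth muscle actin gene, and 477 CPM of Mgp, a matrix protein gene of vessels. Their summed meningeal and fibroblast level was 1609 CPM, against 144 CPM in spots of that set with both genes. In set 4 the same sums were 389 and 75.1 CPM. Ccn2-only spots thus carried more vessel and meningeal RNA in these sets. Without all Ccn2-only spots, 70 genes were higher than in other spots and 58 higher than in layer 6, of which 65 and 53 were among those called before.

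Cplx3-only spots were rich in interneuron genes in set 4, where 16 of the 28 lay, a number too small for firm values. They held 4771 CPM (4534 to 5017) of Pvalb and 4437 CPM (4208 to 4675) of Sst, which mark classes of interneurons, and 164 CPM (122 to 215) of Slc17a7. Spots of set 4 with both genes held 66.6 CPM (58.6 to 75.4) of Pvalb, 1220.3 CPM (1185 to 1256) of Sst and 2651 CPM (2599 to 2704) of Slc17a7. No count of Nxph4 was seen in the Cplx3-only spots of set 4, which allows up to 11.6 CPM at the upper bound of the exact Poisson interval.

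**Figure D4:**
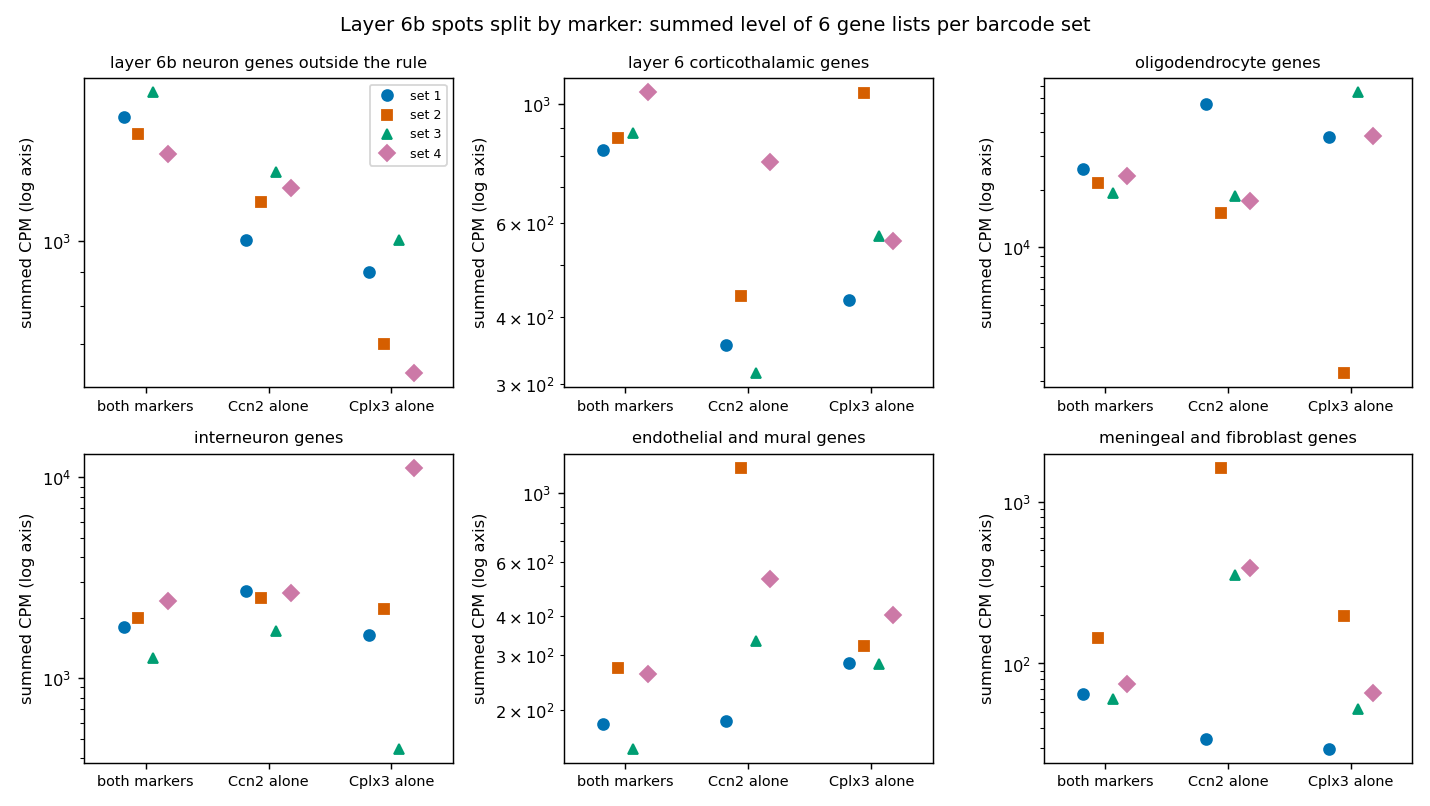
Summed level of 6 gene lists (CPM) in layer 6b spots with both rule genes at a z of at least 1, with Ccn2 alone and with Cplx3 alone, 1 point per barcode set. Ccn2-only spots of sets 2 and 4 are high in meningeal and fibroblast genes, and Cplx3-only spots of set 4 in interneuron genes.

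The same genes graded with the score. From spots under 0 to those of 3 or more, Nxph4 went from 12.5, 4.15, 7.85 and 9.47 to 122, 70.7, 100.1 and 65.9 CPM in sets 1 to 4, and Nxph3 from 19.6, 18.8, 23.7 and 17.4 to 470.2, 437, 597 and 475 CPM. In the bin of 1 to 1.5, just under the threshold, Nxph4 stood at 16.7, 10.2, 20.9 and 7.65 CPM, and in that of 1.5 to 2 at 24.5, 18.6, 24.5 and 14.6 CPM. There was no step at the threshold itself. For spots scoring 1.4 to 1.5 Nxph4 stood at 26.7, 23.5, 13.9 and 12.7 CPM, and for those scoring 1.5 to 1.6 at 19.2, 22.7, 28.2 and 15.1 CPM. The summed interneuron genes of set 4 were highest in the bin of 1 to 1.5, at 7048 CPM, against 2025 CPM in the top bin.

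**Figure D5:**
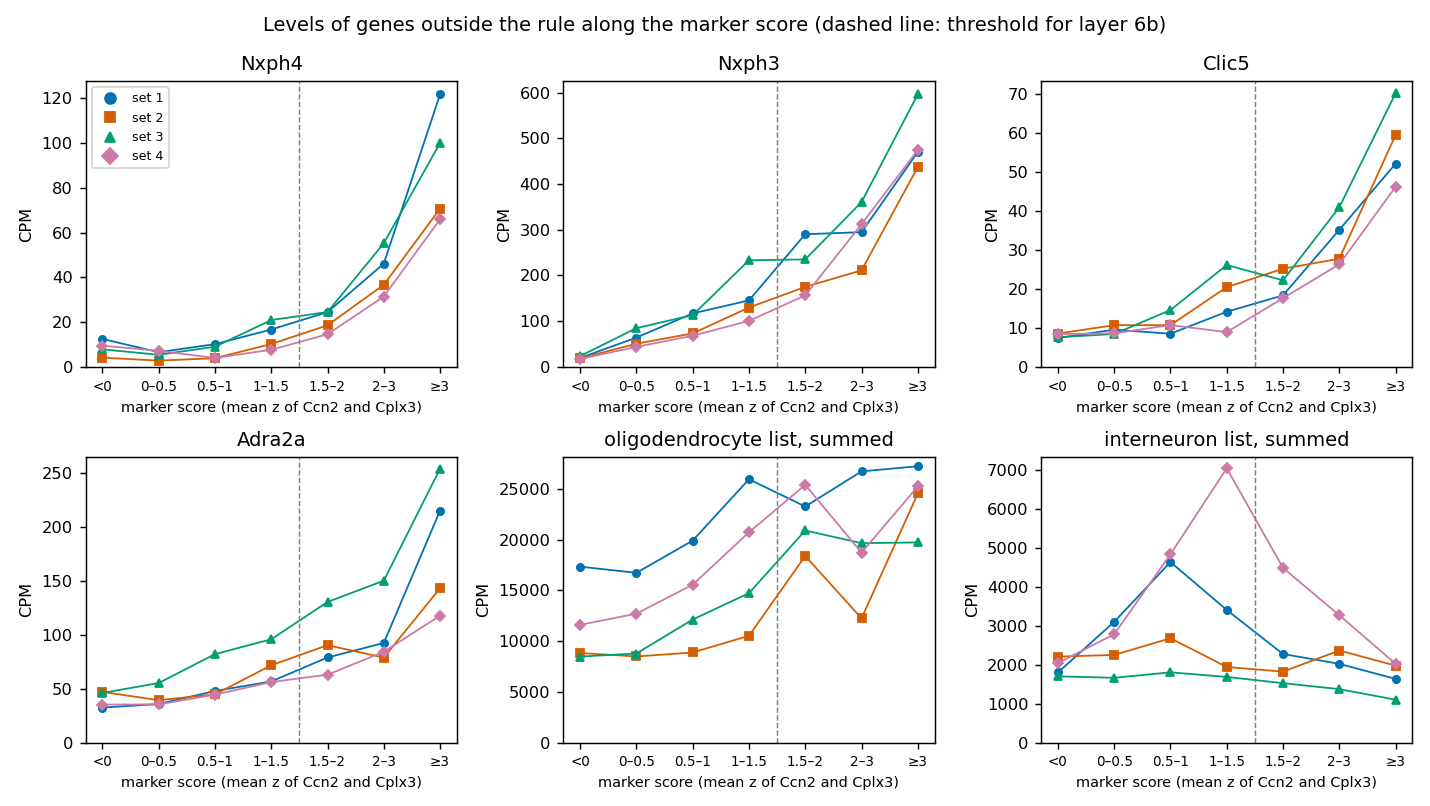
Level (CPM) of Nxph4, Nxph3, Clic5 and Adra2a and of the summed oligodendrocyte and interneuron genes in 7 bins of the layer 6b score, 1 line per barcode set, with the threshold of 1.5 dashed. The 4 single genes are highest in the top bin in every set, and the interneuron sum of set 4 peaks just below the threshold.

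Spots that also passed the white matter rule or the Gnb4 and Synpr rule were high in a gene of that area. Those that also passed the white matter rule held 78.8, 143, 119 and 146 CPM of Thbs4 and 74.1, 71.5, 56.3 and 37.3 CPM of Nxph4. Those that also passed the layer 6 rule held 89.8, 108, 54.5 and 94.7 CPM of Nr4a2, in each set below the level over all layer 6b spots. Those that also passed the Gnb4 and Synpr rule held 393, 396, 299 and 415 CPM of Nr4a2. Of these overlap groups, that with the Gnb4 and Synpr rule was highest in Nr4a2 in every set. The 401 spots that passed no other rule held 106, 61.1, 83.3 and 48.8 CPM of Nxph4, in each set above the level over all layer 6b spots. Without the overlapping spots, 40 genes were higher than in layer 6, and 24 of these were among the 61 called before.

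Celsr3, the gene that differs in genotype, stood at 34.2, 41.4, 22.6 and 48.4 CPM in layer 6b spots of sets 1 to 4 and at 31.6, 47.1, 26.2 and 47.1 CPM in other spots, ratios of 1.08 (0.953 to 1.22), 0.880 (0.762 to 1.01), 0.864 (0.742 to 1.00) and 1.03 (0.897 to 1.17). No set was assigned a genotype from these values. Celsr2, a related cadherin, stood at 272, 221, 273 and 195 CPM in layer 6b spots, and of the 2 genes of the family that could be compared 0 were called. Layer 6b of set 1 was closest to that of set 3, with 32 of 9937 genes (0.322%) 2-fold apart, and layer 6b of set 2 to that of set 4, with 72 (0.725%). Set 1 differed from set 2 by 682 genes (6.86%) and from set 4 by 821 (8.26%). Set 3 differed from set 2 by 477 (4.8%) and from set 4 by 557 (5.61%). Rxfp1, a relaxin receptor gene of the layer 6b list, averaged under 10 CPM in layer 6b spots and was not among the genes counted. Rxfp1 also differed between sets, at 17.9, 2.20, 15.1 and 1.65 CPM. Its ratio over layer 6 was 1.35, 0.867, 0.856 and 0.386, with an interval that included 1 in every set. Layer 6 of these sets thus differed in the same direction. Why the sets differ was not tested.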

How the data were processed

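Gene counts per spot were used as the authors deposited them: 1 table of raw, whole-number counts for 19465 genes, of which 66 had no count, and 12602 spots. Space Ranger and Seurat are named in the submitters' processing notes, without version or role, and the genome build is not given in the sources used here. All 12602 spot columns belong to a sample that their names do not show, so the planned edgeR test between genotypes was not run. Whole sets held between 90752475 and 174761560 counts.

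Counts were summed over the spots of an area within each barcode set and scaled to CPM, and ratios were taken on log2(CPM + 1). Printed folds are plain CPM ratios with exact conditional binomial intervals, and levels carry exact Poisson intervals. No test or replicate error enters, since sets are not tied to mice. The members and the 22 gene lists (186 genes, 184 in the table) were chosen with earlier results of these data known. The text names list genes and, outside the rule genes, the 20 genes highest over other spots and over layer 6 by their smallest log2 ratio, the 10 lowest against layer 6, and the 10 highest over the Gnb4 and Synpr spots and over white matter, with the genes above or below both neighbours added later. Alternatives were the threshold, depth, scaling, pseudocount, filter, overlap and left-out sets. The counting of calls was tested on simulated data. Tools were Python 3.11.15 (numpy 2.4.6, scipy 1.17.1, pandas 2.3.3, matplotlib 3.10.9) and R 4.3.3 with edgeR 4.0.16, used for scaling factors only. Some genes of the lists and rules are not reported here.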

Additional observations from a re-analysis of the deposited data

Results flagged for a closer look

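In 5 of 146 genes examined over the 4 barcode sets, 1 set stood apart from the other 3 in layer 6b spots, with a gap to its nearest neighbour above the 95% critical value of Dixon's ratio of gap to range. Chance gives such a gap in about 1 in 20 genes, and the sets are not a labelled group of replicates. Pvalb, the gene of a class of interneurons, stood at 372 CPM in set 4 and at 41.5 to 45.1 CPM in the other sets. In the spots of set 4 that were high in both rule genes it stood at 66.6 CPM. Ccn3 stood at 197 CPM in set 2 and at 134 to 142 CPM in the other sets. Unc13a, a gene of synaptic vesicle priming, stood at 384 CPM in set 4 and at 257 to 263 CPM in the others. Opalin, an oligodendrocyte gene, stood at 176 CPM in set 3 against 212 to 219.7 CPM, and Cspg4, a gene of oligodendrocyte precursors, at 19.2 CPM in set 1 against 21.4 to 21.8 CPM.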

How the results depend on the processing

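No paired analysis was possible because no barcode set is tied to a mouse or to a replicate number of the labels. For the same reason the genotype fit, its DESeq2 alternative and the fits without each mouse were not run. No count, share or called gene turned its direction under the alternatives run, while 3 list medians near 0 did. The comparison with both neighbours, its 1.5-fold form and the runs without Ccn2-only spots were chosen after seeing the data. The share of layer 6b spots in sets 1 to 4 was 6.55%, 7.05%, 7.06% and 9.23% at a mean z of at least 1.0 and 4.09%, 4.56%, 4.67% and 4.37% at 2.0, and it was 4.58% in set 4 with both genes at a z of at least 1. With a pseudocount of 10 CPM the counts were 43 higher and 61 lower than in other spots, 21 higher and 0 lower than in layer 6, and 44 higher than in the Gnb4 and Synpr spots. With a minimum of 1 CPM, and with no minimum, 201 genes were lower than in other spots. Without the layer 6b spots that pass another rule, 40 genes were higher and 14 lower than in layer 6, 40 were higher than in the Gnb4 and Synpr spots, and 10 were above both neighbours. With layer 6 taken at a mean z of 1.0, 99 genes were higher and 17 lower than in layer 6, and 10 were above both neighbours. Genes lower than in layer 6 numbered 11 at a mean z of 2.0, 3 with z taken within each set, 10 with spots thinned to 10000 counts for the rule, and 8 to 12 with 1 set left out. Genes above both neighbours numbered 11 after thinning, 28 at 1.5-fold and 6 to 13 with 1 set left out. Genes apart between sets (1 and 2, 1 and 3, 1 and 4, 2 and 3, 2 and 4, 3 and 4) numbered 308, 11, 360, 191, 25 and 237 with a pseudocount of 10 CPM. They numbered 1215, 116, 1483, 898, 271 and 1029 with a minimum of 1 CPM, and 1459, 127, 2333, 1043, 575 and 1577 with none. The cause of these shifts was not tested.

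With 1 set left out, 67 to 88 genes were higher and 131 to 179 lower than in other spots, and 66 to 91 were higher than in layer 6. Of the values of single named genes under an alternative, 1410 kept their side of the 2-fold line, 61 no longer passed it and 34 newly did. RLE scaling moved the median of all genes over white matter from 0.01 to 0.11 on the log2 scale. RLE scaling also moved the median over other spots from -0.05 to 0.02. Under TMM or RLE scaling 85 list medians kept their sign and 3 did not. With CPM, TMM and RLE these were -0.00, 0.04 and 0.07 for meningeal and fibroblast genes over other spots, 0.01, -0.07 and -0.05 for layer 5 genes over layer 6, and 0.02, -0.05 and -0.05 for neurexophilin and neurexin genes over layer 6. Low genes such as Moxd1, Hcrtr1 and Hcrtr2 are limited by depth.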
